A study of Homo sapiens with 21 samples.

Results

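RUNX1 binding was described here around 4 pan-T surface antigen genes, CD2, CD5, CD6 and CD7, in Jurkat cells. Members were the ChIP-seq peaks whose summit, the base of highest signal, lay in a fixed hg19 window around each gene: chromosome 1 from 117277 to 117322 kb for CD2, chromosome 11 from 60850 to 60906 kb for CD5 and from 60729 to 60798 kb for CD6, and chromosome 17 from 80262 to 80286 kb for CD7. These windows held 308 of 791439 peaks. Summits within reach of each other (100 bp on each side, overlapping windows merged over all lists) made up 55 of 190855 regions, 27 in the CD2 window, 9 in the CD5 window, 12 in the CD6 window and 7 in the CD7 window.

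Jurkat is an established human T-cell acute lymphoblastic leukaemia line, and all cells were untreated. Knock-in single clones carried 1 of 3 RUNX1 mutations: R232fs, a frameshift, Y287X, a premature stop, and G365R, an amino acid replacement. In these clones an HA tag marked the mutant RUNX1 and a TY1 tag the wild-type RUNX1 of the same cells, so that HA against TY1 sets mutant against wild-type protein. The WT clone carried both tags on wild-type RUNX1, so its HA and TY1 lists differ in tag and antibody and not in protein. There were 2 clones each for R232fs, Y287X and G365R and 1 clone for WT, with 1 HA and 1 TY1 peak list per clone, 14 lists in all. A further 7 control samples had no list and were not analysed here. A difference between genotypes is therefore also a difference between single clones, and WT has no replicate.

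CD2 is an adhesion receptor of T cells and natural killer cells that binds CD58 on other cells. CD5 and CD6 are related scavenger-receptor cysteine-rich proteins whose genes lie next to each other on chromosome 11; CD5 dampens T-cell receptor signalling, and CD6 binds CD166. CD7 is an immunoglobulin-superfamily protein of early T cells, and it is among the antigens used to recognise T-cell leukaemia. RUNX1 contacts DNA through its Runt domain with its partner CBFB, and it is a regulator of T-cell genes. The frameshift and the stop both lie beyond the Runt domain, in the part of the protein that holds the activation domain.

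Of the 4 genes, 1 had an entry in the promoter table used, so only the start of CD2 is shown. The sequence is the 250 bases before that start (RefSeq, GRCh38.p14, chr1:116754180-116754429, + strand). Capitals mark a match to the RUNX core motif, searched on both strands as TGTGGT with C also allowed in place of T at the first and the third letter, 4 forms in all.
CD2 promoter: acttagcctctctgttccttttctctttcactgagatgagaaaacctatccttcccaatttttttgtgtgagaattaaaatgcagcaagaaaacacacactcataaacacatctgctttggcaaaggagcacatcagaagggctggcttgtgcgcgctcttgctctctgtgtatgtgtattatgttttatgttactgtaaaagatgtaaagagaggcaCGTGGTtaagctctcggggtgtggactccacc
The match begins 32 bases before the gene's start, and its first letters are shared with a CACGTG. A match to any of the 4 forms was held by 10280 of 35116 promoters of the same length, 29.3%. The peak lists use hg19 coordinates, and no peak was placed on this sequence. For the same reason no peak below is assigned to an exon, an intron or a promoter.

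Each list held between 30563 and 86433 peaks. The HA lists were the longer ones in both R232fs clones (77691 and 86433 peaks, against 40112 and 59140 in TY1) and the shorter ones in both G365R clones (30609 and 30563, against 57378 and 61793). In the WT clone, with both tags on wild-type protein, the HA list was the shorter one too (37472, against 59452). Y287X clones went both ways (51892 and 67594 in HA, against 49749 and 81561 in TY1). Peak lists carry no read depth; the commonest local background, solved from the deposited values, ran from 2.83 to 4.8 fragments per base. Counts of peaks in the 4 windows are read beside these lengths.

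Of the 55 regions, 4 (7.27%) had a summit in all 14 lists, against 5.92% of all 190855 regions: 1 in the CD2 window, 1 in the CD5 window, 2 in the CD6 window and 0 in the CD7 window. Another 11 were in 10 to 13 lists, 25 were in 2 to 9 and 15 (27.3%) were in a single list, against 42.3% of all regions in a single list. The share in all lists was thus near that of the genome at large. In the truncating lists, those of R232fs and Y287X, 26 of the 55 regions were found with no summit in any G365R or WT list, beside 52.4% of all regions, and 13 of these were in more than 1 list, beside 18.7%. One of the 13 is the shifted form of the strongest CD2 site described below. The reverse, found in G365R or WT lists alone, was seen for 2 regions, both in the CD2 window, beside 13.2% of all regions. The truncating set has 8 lists and the G365R and WT set 6, and 4 of the 5 longest lists are truncating ones.

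**Figure D1:**
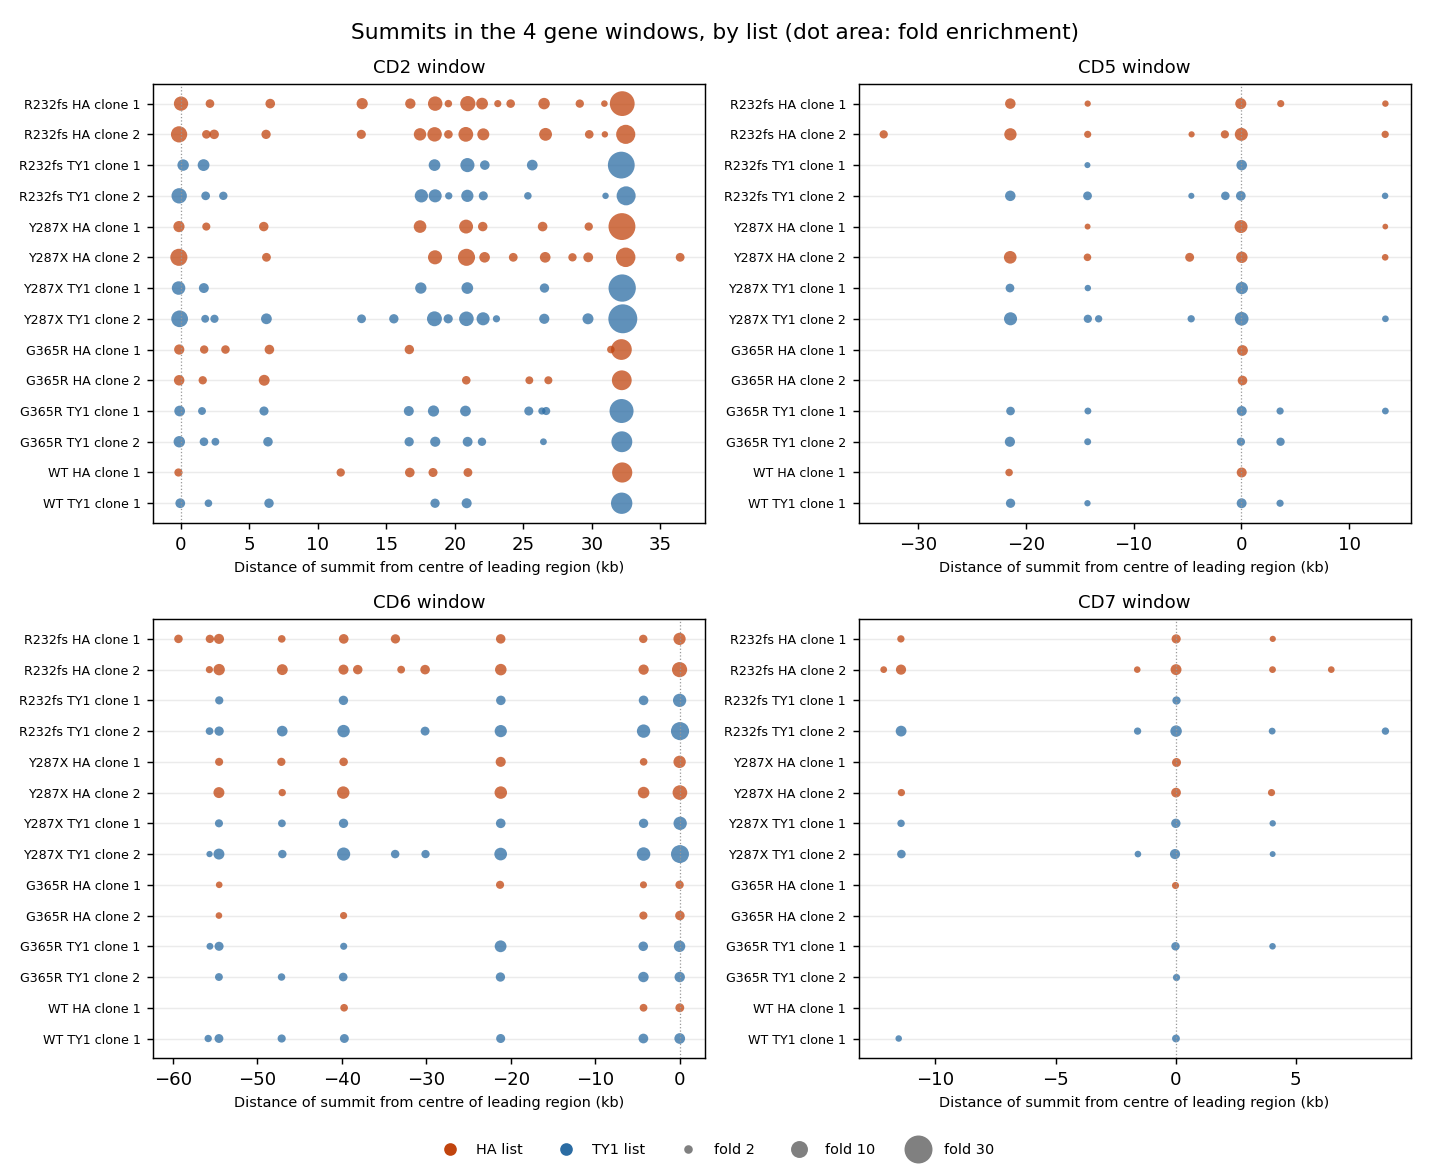
Every summit in the CD2, CD5, CD6 and CD7 windows, drawn by list. The horizontal axis is the distance in kb from the centre of the leading region of each window, rows are lists, colour is the tag and dot area is fold enrichment; the column of large dots 32 kb right of the leading CD2 region is the strongest CD2 summit, and the CD7 row is empty for the HA lists of G365R clone 2 and of WT.

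The strongest binding at any of the 4 genes was in the CD2 window, where the highest fold of the window fell within the same 354 bp in every list (chr1:117312441-117312795). Fold is the summit's signal over the local background, as the authors' peak caller gave it. In R232fs clones the fold was 26.9 and 16.0 in the HA lists, against 31.5 and 15.9 in the TY1 lists. Y287X clones had 31.7 and 16.6 in HA, against 32.7 and 36.7 in TY1. G365R clones had 18.9 and 17.2 in HA, against 25.2 and 19.1 in TY1, and the WT clone had 17.8 in HA, against 20.0 in TY1. The summit ranked above 95.2% to 99.6% of the peaks of its own list, so it was among the strongest sites of every list. TY1 folds were above HA folds in 5 of the 6 mutant clones and in the WT clone.

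In 11 lists this summit fell within offsets of -42 to 70 bp of their median position. In the other 3, the HA and TY1 lists of R232fs clone 2 and the HA list of Y287X clone 2, it lay 283, 312 and 280 bp from that median, toward higher coordinates. All 14 peaks covered the median position of the 11, so what differed was the place of the highest base and not the presence of a peak. The 3 displaced summits had the lowest signal, 90, 88 and 100 fragments at the summit, against 125 to 219 in the other 11. The TY1 list of Y287X clone 2 was not displaced and had the highest fold of all, 36.7. A spread of summits of 354 bp or more was found in 15.4% of the 12318 regions shared by all lists when windows of 250 bp were used, so it is not rare among shared regions.

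**Figure D2:**
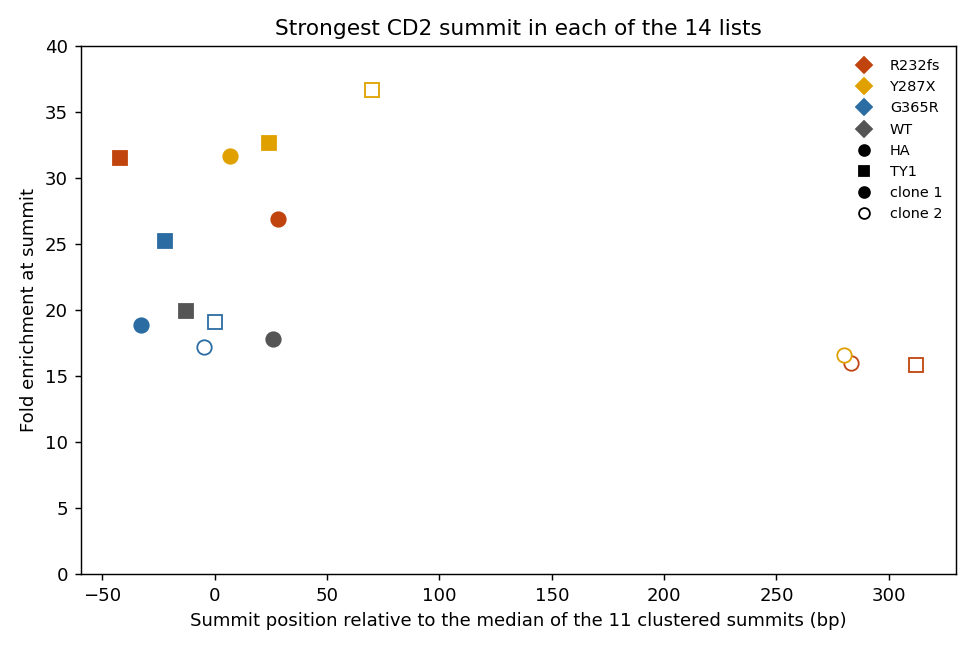
Strongest CD2 summit of each list, with its position in bp relative to the median of the 11 clustered summits on the horizontal axis and its fold enrichment on the vertical axis. Colour is the genotype, circles are HA and squares TY1, and filled symbols are clone 1 and open symbols clone 2; 11 summits lie between -42 and 70 bp with folds of 17.2 to 36.7, and 3 lie at 280, 283 and 312 bp with folds of 15.9 to 16.6.

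Because of this displacement the strongest CD2 site counted as 2 regions with 100 bp windows, and it entered no comparison across all lists at that setting. With 250 bp windows it was 1 region (chr1:117312191-117313045) and could be compared. Comparisons of level used the rank of each region's fold within its list, turned into a normal score, where 1 unit is 1 SD of a list's scores; this removes differences in scale between lists. The score was 0.15 ± 0.21 (SE) higher in HA than in TY1 on the mean of the 3 mutant genotypes (adjusted p = 0.879), although the folds themselves were mostly higher in TY1. The truncating lists differed from the G365R lists by -0.15 ± 0.32 under HA (adjusted p = 0.782) and by -0.06 ± 0.32 under TY1 (adjusted p = 0.924). No difference in the rank of this site passed the test, and the standard errors were larger than the differences themselves.

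The leading region of a window was the one with the highest median fold among those found in the most lists. For CD2 this lay 32 kb to the left of the strongest site (chr1:117280019-117280561) and was in all 14 lists. It had folds of 8.94 and 11.6 in the HA lists of R232fs, against 5.77 and 10.3 in TY1. Y287X had 5.48 and 12.8 in HA, against 8.00 and 12.2 in TY1. G365R had 4.59 and 4.82 in HA, against 5.04 and 5.72 in TY1, and WT had 2.95 in HA, against 4.17 in TY1. The truncating lists thus reached higher folds, with a median of 9.65 against 4.71 in the G365R and WT lists, and overlapped them narrowly: the lowest truncating value was 5.48 and the highest G365R value 5.72. Fold depends on the background as well as on the signal, and here the local background solved from the deposited values was 4.03 to 4.84 fragments per base in the truncating lists, against 5.85 to 11.2 in the G365R and WT lists, while the signal at the summit overlapped (31 to 72 fragments, against 32 to 52). The control that each list was called against is not given in the sources used here, so for every fold and rank of fold set between truncating and other lists a difference in control and a difference in genotype cannot be told apart.

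The CD5 window was led by chr11:60883925-60884224, the only one of its 9 regions found in all 14 lists. R232fs had folds of 5.38 and 7.44 in HA, against 4.89 and 4.11 in TY1. Y287X had 7.39 and 5.73 in HA, against 6.56 and 8.21 in TY1. G365R had 5.08 and 4.05 in HA, against 4.36 and 2.98 in TY1, and WT had 4.37 in HA, against 4.30 in TY1. Unlike the strongest CD2 site, it had the higher fold in HA in 5 of 6 mutant clones. The truncating lists (4.11 to 8.21) and the G365R and WT lists (2.98 to 5.08) overlapped. Both the background (11.9 to 13.5 fragments per base, against 22.8 to 35.5) and the median signal (85.0 fragments, against 117.5) were lower in the truncating lists, so the higher median fold there did not come with a higher median signal.

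CD6 had 2 regions in all 14 lists, 4 kb apart at the right end of its window. The leading one (chr11:60793525-60793798) had folds of 6.55 and 10.1 in R232fs HA, against 7.73 and 14.4 in R232fs TY1. In Y287X the values were 6.69 and 9.44 in HA, against 7.79 and 14.1 in TY1. In G365R they were 3.07 and 3.98 in HA, against 5.74 and 4.75 in TY1, and in WT 3.43 in HA, against 5.04 in TY1. Every truncating list was above every G365R and WT list, with medians of 8.61 and 4.36, and by fold TY1 was above HA in all 7 clones. By rank score HA was above TY1 in Y287X clone 1 (by 0.07) and G365R clone 2 (by 0.16), and below it in the other clones. At this region the background overlapped between the sets (45.5 to 59.3 fragments per base, against 33.9 to 52.3), and the signal did not (325 to 792 fragments, against 137 to 280.0). Signals at this and the other regions are not scaled for the depth of a list. In the TY1 lists of G365R clone 1 and of WT few of them were near whole numbers (8.48% and 8.86% at the shared regions).

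Its neighbour (chr11:60789229-60789476) was weaker. It had folds of 3.10 and 4.64 in R232fs HA, against 4.08 and 7.83 in TY1, and of 2.54 and 5.88 in Y287X HA, against 3.84 and 8.04 in TY1. G365R had 2.17 and 2.90 in HA, against 3.99 and 4.77 in TY1, and WT had 2.65 in HA, against 4.16 in TY1. Here too TY1 was above HA in all 7 clones, the WT clone included, in which both tags mark the same protein. The truncating and the other lists overlapped.

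CD7 had no region in all lists. Its leading region (chr17:80275311-80275558) was in 12, and it was missing from the HA lists of G365R clone 2 and of WT. R232fs had folds of 3.69 and 5.24 in HA, against 3.00 and 5.78 in TY1, and Y287X had 3.55 and 4.15 in HA, against 3.86 and 4.51 in TY1. G365R had 2.2 in the HA list that held it, against 3.12 and 2.27 in TY1, and the WT TY1 list had 2.69. The truncating lists (median 4.01) were above the others (median 2.48) but for an overlap between the lowest truncating value, 3.00, and the highest G365R value, 3.12. The background overlapped (54.0 to 74.9 fragments per base, against 54.4 to 80.9), and the signal was 198 to 330 fragments in the truncating lists, against 121 to 197 in the others.

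Further members were found in 9 to 13 lists. In the CD6 window chr11:60753724-60754062 was in 13 lists, with folds of 3.20 to 7.62 in the truncating lists, against 2.22 to 3.49 in the others. A region on its right (chr11:60772285-60772579) was in 12, with 3.96 to 7.05 in the truncating lists, against 2.89 to 6.12 in the others, and chr11:60746404-60746723 was in 9, of which 7 were truncating. These CD6 regions thus had the higher median fold in truncating lists too, with overlap. In the CD5 window chr11:60869702-60869945 was in all 8 truncating lists, with folds of 1.55 to 3.37, against 1.76 to 2.10 in the 3 other lists that held it. CD2 regions differed among themselves. Median folds were alike at chr1:117286246-117286919 (3.93 in truncating lists, against 3.97 in the others) and chr1:117281739-117282519 (3.29, against 3.03). They were higher in truncating lists at chr1:117298600-117298962 (8.94, against 4.16) and chr1:117300968-117301348 (9.03, against 4.26). Of the members in fewer lists, folds stayed between 1.45 and 7.72 outside the strongest CD2 site, and those of the CD7 window beside its leading region between 1.54 and 5.12.

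**Figure D3:**
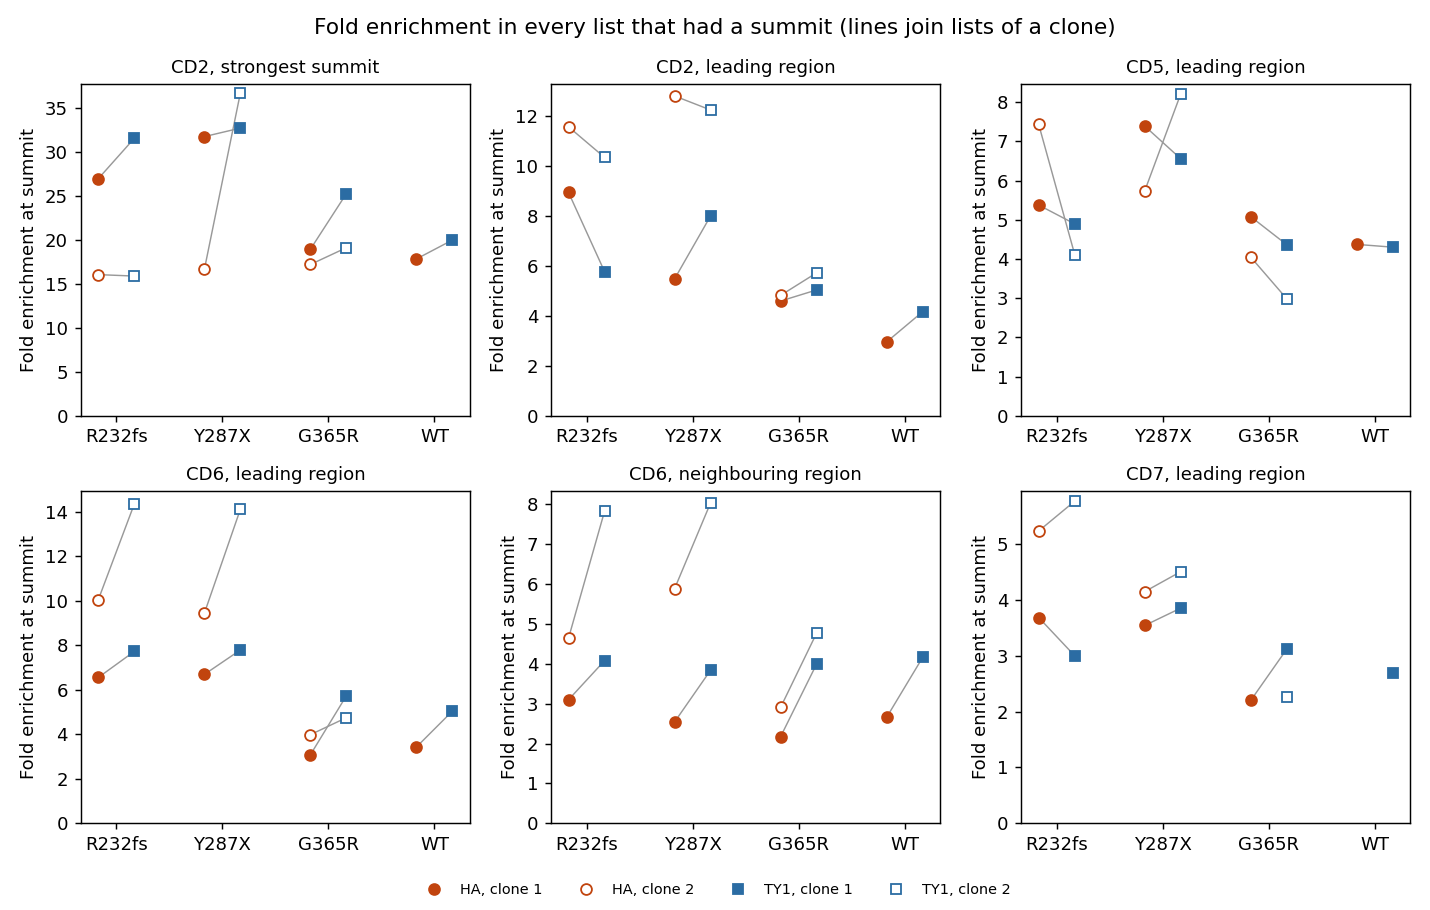
Fold enrichment at the strongest CD2 summit, at the leading region of each window and at the neighbouring CD6 region, in every list that had a summit there. Each panel has its own vertical axis from 0; circles are HA and squares TY1, filled symbols clone 1 and open symbols clone 2, and lines join the 2 lists of a clone. In the panel of the leading CD6 region the 8 truncating lists (6.55 to 14.4) lie above the 6 others (3.07 to 5.74).

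Mutant against wild-type protein was compared first over the 11291 regions with a summit in all 14 lists, of which 4 are members: the leading regions of CD2, CD5 and CD6 and the CD6 neighbour. With limma on the scores, 0 of the 4 members and 0 of the 11291 regions (0%) passed an adjusted p of 0.05 for HA minus TY1, whether on the mean of the 3 genotypes, within R232fs, Y287X or G365R, or for the difference between truncating and G365R clones. At an unadjusted p under 0.05 the members counted 1, 1, 0, 1 and 0 in these comparisons, beside 9.92%, 12.1%, 4.1%, 5.23% and 10.4% of all regions. In simulated scores this fit, on the mean of the 3 genotypes, found 10% of 50 shifts of 0.5 and 58% of 50 shifts of 1.0. A difference of such a size can thus be missed. HA and TY1 lists of a clone share their cells and deviated together (correlation over regions of 0.792 for R232fs clones, 0.702 for Y287X clones and 0.503 for G365R clones), so the same comparison was made within clones, with clone as a term. Within clones 2 of the 4 members passed on the mean of the 3 genotypes, 1 higher in HA and 1 lower, beside 7.31% of all regions higher and 8% lower. In R232fs 1 member passed, higher in HA, beside 10.4% of all regions higher. In Y287X, in G365R and for the difference between truncating and G365R clones 0 members passed, beside 0.815%, 4.08% and 17.1% of all regions.

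The leading CD5 region was the member that passed upward. Its score was above that of TY1 in HA by 0.22 and 1.69 in the R232fs clones, by 0.46 and -0.09 in the Y287X clones and by 0.98 and 1.16 in the G365R clones, and by 0.51 in the WT clone. The mean over the 3 mutant genotypes was 0.74 ± 0.23 (adjusted p = 0.336) without the clone term and 0.74 ± 0.18 (adjusted p = 0.0305) with it. The difference was positive in 5 of 6 mutant clones, and the WT clone, where no mutant protein is tagged, had a positive one as well. The within-clone call was lost without R232fs clone 2 (adjusted p = 0.0506), without either Y287X clone (0.108 and 0.0562) or without either G365R clone (0.0905 and 0.102), and was kept without R232fs clone 1 (0.00906) or without WT (0.0293). When summit signal was ranked in place of fold, the region passed without the clone term, by 0.43 ± 0.10 (adjusted p = 0.0440) on the mean, beside 0.895% of all regions higher, and by 0.74 ± 0.17 (adjusted p = 0.0293) in G365R, beside 2.07%.

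The CD6 neighbour was the member that passed downward. Its score in HA was below that in TY1 in all 6 mutant clones, with differences of -0.54 and -0.60 for R232fs, -0.50 and -0.01 for Y287X and -0.43 and -0.31 for G365R; the WT clone had -0.18. The mean was -0.40 ± 0.28 (adjusted p = 0.669) without the clone term and -0.40 ± 0.11 (adjusted p = 0.0397) with it. Leaving out any of the 6 mutant clones ended this call, with adjusted p between 0.0544 and 0.135. With 250 bp windows and the clone term, the CD5 region and the CD6 neighbour again passed (adjusted p = 0.0412 and 0.0489), beside 5.72% of all regions higher and 6.15% lower. For both regions the WT clone differed in the same direction as the mutant mean, so that the part of tag and antibody and the part of the mutation cannot be told apart from these lists.

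At the leading CD2 region HA was above TY1 in score in 5 of 6 mutant clones, with differences of 0.73 and 0.57 for R232fs, -0.26 and 0.45 for Y287X and 0.52 and 0.17 for G365R. The WT clone had 0.01. By fold HA was above TY1 only in both R232fs clones and Y287X clone 2, and below it in Y287X clone 1, both G365R clones and WT. The mean difference in score was 0.36 ± 0.18 (adjusted p = 0.551) without the clone term and 0.36 ± 0.11 (adjusted p = 0.0628) with it. In R232fs alone it was 0.65 ± 0.32 (adjusted p = 0.447), and within clones 0.65 ± 0.20 (adjusted p = 0.0489), just past the threshold. That call ended without either R232fs clone (adjusted p = 0.228 and 0.160), without either G365R clone (0.0672 and 0.0673) and with 250 bp windows (0.0649). The difference between truncating and G365R clones at this region was 0.03 ± 0.39 (adjusted p = 0.993). At the leading CD6 region the mean was -0.08 ± 0.18 (adjusted p = 0.926), the smallest of the 4 members, and it was not past the threshold with the clone term either (-0.08 ± 0.10, adjusted p = 0.611). For CD7 a fit over regions in at least 10 lists gave 0.09 ± 0.21 (adjusted p = 0.896) at the leading region, with its 2 missing lists left out, so that G365R was 1 HA list there, assumed to vary like the other groups.

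**Figure D4:**
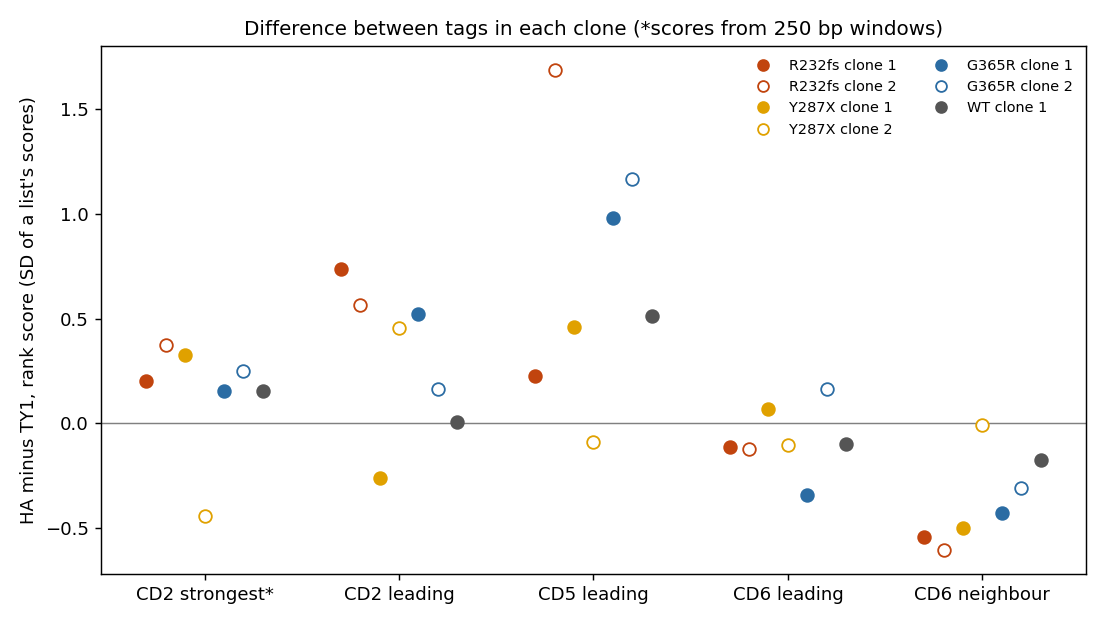
HA minus TY1 difference in rank score, in SD of a list's scores, in each of the 7 clones at the strongest CD2 site (from 250 bp windows), the leading CD2, CD5 and CD6 regions and the CD6 neighbour. Colours are genotypes, filled symbols clone 1 and open symbols clone 2; at the CD5 region 6 of 7 clones lie above 0, and at the CD6 neighbour all 7 lie below it, from -0.01 to -0.60.

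Truncating and G365R clones were compared under the same tag, which sets mutant proteins against each other under HA and the wild-type proteins beside them under TY1. The leading CD6 region stood out by fold, with no overlap between the 8 truncating lists and the 6 G365R and WT lists; this was true of 1 of the 4 members by fold and by rank, beside 11.1% of the 11291 regions above by fold and 6.37% above by rank. No member lay below without overlap, beside 0.673% by fold and 4.87% by rank. In scores the region was 0.67 ± 0.27 higher in truncating than in G365R clones under HA (adjusted p = 0.122) and 0.65 ± 0.27 higher under TY1 (adjusted p = 0.161). Neither passed, and the size was about the same under the tag of the mutant and the tag of the wild-type protein. Of the 4 members 0 passed under HA and 0 under TY1, beside 9.53% and 4.57% of all regions, and 1 and 1 had an unadjusted p under 0.05, beside 29.7% and 25.1%. With a random effect for clone the counts of members stayed at 0, beside 8.7% and 3.44%.

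The CD6 call depended on the choice of lists and of the value ranked. Without R232fs clone 1 the region passed under HA (0.82 ± 0.21, adjusted p = 0.0288) and under TY1 (0.80 ± 0.21, adjusted p = 0.0312), beside 11.8% and 11.5% of all regions higher. Ranked by -log10 p it passed under HA (0.90 ± 0.23, adjusted p = 0.00906), beside 21.6% higher. The 2 sets of lists differ in more than these genes: under that ranking 18% of all regions were lower, the leading CD5 region among them (-0.86 ± 0.32, adjusted p = 0.0481). By summit signal no member passed as higher, the leading CD6 region included: 0 under HA and 0 under TY1, beside 2637 and 1082 of the 11291 regions. The CD5 region was lower by summit signal too (-0.68 ± 0.15, adjusted p = 0.00433), beside 17.3% of all regions, while by fold it differed by -0.10 ± 0.35 (adjusted p = 0.871). At the leading CD2 region the differences were 0.40 ± 0.28 under HA (adjusted p = 0.350) and 0.37 ± 0.28 under TY1 (adjusted p = 0.420).

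Regions in at least 10 lists, with missing lists left out, brought 12 members into the comparison under HA. Of these, 3 were higher in truncating than in G365R clones, beside 15.6% of all regions higher, and 0 were lower; the median over all regions was itself shifted by 0.33. One was the leading CD6 region (1.09 ± 0.27, adjusted p = 0.0198). Another was a CD2 region between the leading region and the strongest site (chr1:117300968-117301348, 1.62 ± 0.32, adjusted p = 0.00864), with folds of 6.0 to 12.8 in the truncating lists, against 3.21 to 5.06 in the 5 other lists that held it. The third was a CD6 region at the left of the window (chr11:60739018-60739257, 1.37 ± 0.30, adjusted p = 0.0115), with folds of 2.86 to 5.71 in the truncating lists, against 1.92 to 3.61 in 5 other lists. The CD2 region lacked a summit in the HA list of G365R clone 1, so that G365R was 1 HA list there (fold 3.21), assumed to vary like the other groups, and the CD6 region lacked one in WT HA. The leading CD7 region, where G365R was also 1 HA list (fold 2.2) under the same assumption, was 0.78 ± 0.37 higher and did not pass (adjusted p = 0.167).

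G365R protein against wild-type protein under HA compared 2 clones with 1. None of the 4 members passed in limma, beside 0% of all regions, and 0 members had an unadjusted p under 0.05, beside 3.14% of all regions; with a random clone effect the counts were again 0 and 0%. The differences were 0.63 ± 0.39 at the leading CD2 region, 0.03 ± 0.49 at the CD5 region, -0.05 ± 0.37 at the leading CD6 region and -0.28 ± 0.59 at its neighbour. These standard errors assume that the lone WT lists vary like the others.

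Presence of a summit was split by tag in 7 of the 55 regions. For R232fs, 3 members had a summit in each HA list and in no TY1 list (3 of 55, 5.45%, beside 3.98% of all regions), all in the CD2 window: chr1:117286246-117286919 with HA folds of 4.07 and 3.79, chr1:117293365-117293630 with 5.49 and 3.66, and chr1:117306547-117307219 with 5.80 and 7.24. At the last of these both R232fs TY1 lists did have a peak over the region, from 117305637 to 117307468 and from 117305502 to 117307162, and their summits lay to the left, so there the split is one of summit position and not of peaks. At the other 6 regions the lists without a summit had no peak over the region. For G365R, 4 members had a summit in each TY1 list and in no HA list (4 of 55, 7.27%, beside 7.85%). One was in the CD2 window (chr1:117298600-117298962, TY1 folds of 5.49 and 4.53), and 3 were in the CD5 window (chr11:60862436-60862771 with 3.27 and 4.55, chr11:60869702-60869945 with 2.07 and 2.10, and chr11:60887568-60887831 with 2.28 and 3.04). Both splits run the way the lengths of the lists do, with more R232fs peaks in HA and more G365R peaks in TY1, and their shares are near those of all regions. The reverse splits were not seen in R232fs (0 members, beside 0.27%) or G365R (0, beside 0.24%), and Y287X had 0 regions split either way, beside 0.679% in both HA and no TY1 list and 1.2% in both TY1 and no HA list. No region was in all 8 truncating lists and no other (0.176% of all regions), or in all 6 G365R and WT lists and no other (0.252%).

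In the other genotypes most of these split regions had summits under both tags. The CD2 region at 117306547 was in 9 lists, with folds of 4.06 and 5.01 in Y287X HA, against 3.83 and 4.54 in Y287X TY1. The CD2 region at 117298600 was in 10 lists and had folds of 9.15 and 9.17 in R232fs HA, against 6.01 and 7.5 in R232fs TY1. The CD5 region at 60862436 was in 10 lists, and in clone 2 of R232fs and of Y287X it had folds of 6.66 and 7.02 in HA, against 4.83 and 7.48 in TY1. The WT clone, with both tags on wild-type protein, had part of the G365R split. It had a TY1 summit and no HA summit at the CD5 regions at 60869702 (fold 1.76) and 60887568 (2.28). At the regions at 117298600 and 60862436 it had both, with 3.60 and 2.48 in HA, against 3.78 and 3.78 in TY1. Over all genotypes and more than 1 list, 1 region was in HA lists alone (chr1:117304267-117304656, 2 lists, folds of 3.23 and 3.39), beside 3.92% of all regions, and 0 were in TY1 lists alone, beside 3.74%.

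The number of peaks per window was counted in each list. The CD2 window held 15 and 14 peaks in R232fs HA, against 7 and 11 in TY1; 9 and 11 in Y287X HA, against 6 and 14 in TY1; 7 and 7 in G365R HA, against 10 and 10 in TY1; and 6 in WT HA, against 6 in TY1. The CD5 window held 5 and 7 in R232fs HA, against 2 and 6 in TY1, and 1 and 1 in G365R HA, against 5 and 4 in TY1. R232fs thus had more peaks in HA and G365R more in TY1, in every clone of each. The same order held in the CD6 window, with 9 and 10 in R232fs HA, against 5 and 8 in TY1, and 4 and 4 in G365R HA, against 6 and 6 in TY1. In the CD7 window R232fs had 3 and 6 in HA, against 1 and 5 in TY1, and G365R had 1 and 0 in HA, against 2 and 1 in TY1.

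**Figure D5:**
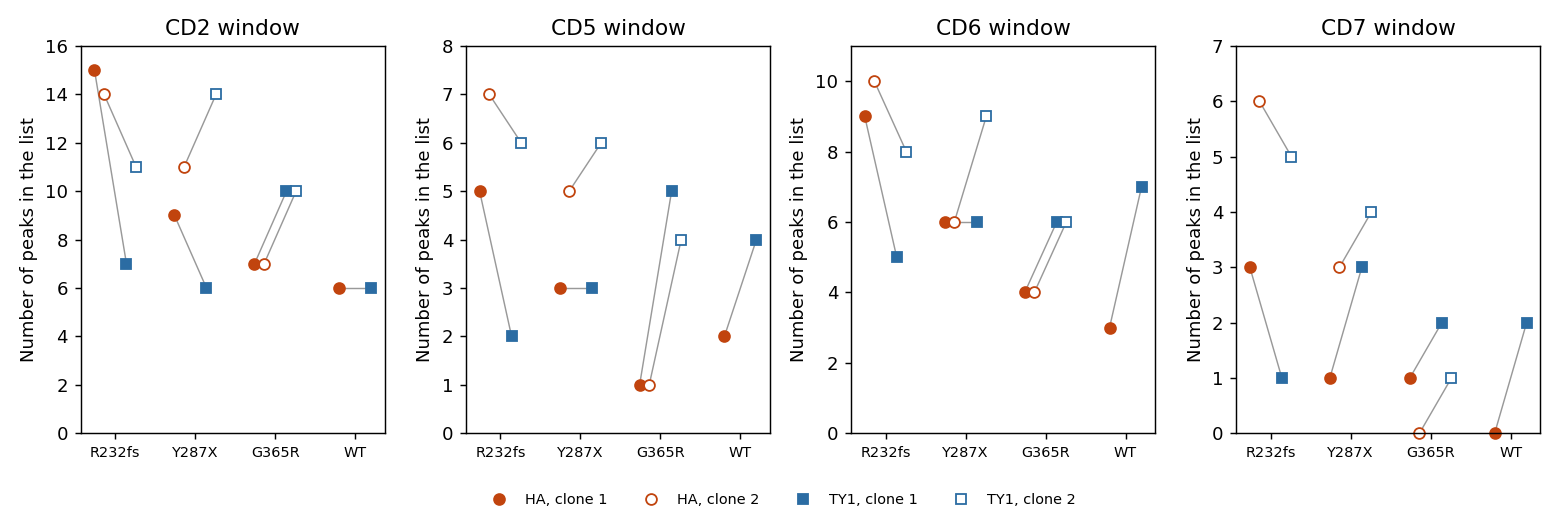
Number of peaks in the CD2, CD5, CD6 and CD7 windows in each list, by genotype. Circles are HA and squares TY1, filled symbols clone 1 and open symbols clone 2, and lines join the 2 lists of a clone; lines slope down from HA to TY1 in both R232fs clones and up in both G365R clones in all 4 windows.

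Over the 6 mutant clones these opposite directions nearly cancelled. HA lists had a mean of 10.5 peaks in the CD2 window, against 9.67 in TY1 lists (difference 0.83, p = 0.731, 2-sided exact permutation of tags within genotype). The means were 3.67 against 4.33 for CD5, 6.50 against 6.67 for CD6 and 2.33 against 2.67 for CD7. The percentile of the strongest peak of the window within its list was 76.7 in HA, against 65.7 in TY1, for CD5 (difference 11.05, exact permutation p = 0.139) and 71.8 in HA, against 81.6 in TY1, for CD6 (difference -9.80, exact permutation p = 0.231). The WT clone, which was not tested, had 61.9 in HA, against 59.0 in TY1, for CD5. For CD6 it had 38.1 in HA, against 68.8 in TY1, with no mutant protein tagged. None of the 8 comparisons passed, with adjusted p of 0.926 or more. HA and TY1 lists share a clone, so tags were also swapped within clones. That exact permutation gave p = 0.25 for the CD5 percentile and p = 0.375 for the CD6 percentile, and none of the 8 passed. The CD5 difference was 21.7 with lists of equal length (exact permutation p = 0.00926, adjusted p = 0.0741) and 10.9 with percentiles by -log10 p (exact permutation p = 0.0278, adjusted p = 0.111), neither past the adjusted threshold, and 5.83 without G365R clone 1 (exact permutation p = 0.528).

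Between sets of clones, truncating clones had the higher mean number of peaks and the higher mean percentile by fold in each window. No comparison passed after adjustment, and the CD2 and CD5 percentiles depended on the value ranked and on list length. The 7 clones allow 35 splits. Even a comparison at the smallest p of these splits passes adjustment over 8 tests only if most others reach it too. Not passing is thus no sign of equal values. The percentile of the strongest CD6 peak averaged 88.6 in the truncating lists, against 53.1 in the G365R and WT lists, a difference of 35.4 (p = 0.0286, exact permutation of the 7 clones in 35 splits, 2-sided, the smallest p this design can give; adjusted p = 0.114). G365R and WT averaged 35.8 and 38.1 in HA, against 70.2 and 68.8 in TY1. Under TY1, G365R clone 1 (75.2) was close to R232fs clone 1 (75.4). The strongest peak lay in the leading CD6 region except in the G365R TY1 lists, where it was at 60772449 in clone 1 and 60789353 in clone 2. For CD7, with a list without a peak set to 0, the percentile averaged 56.3, against 12.1 (exact permutation p = 0.0571), and for CD5 77.7, against 58.9 (exact permutation p = 0.0571). The CD2 value barely differed, 98.2 against 97.6 (exact permutation p = 0.486), since the strongest CD2 summit was near the top of every list. Peaks per window averaged 10.9 against 7.67 for CD2, 4.63 against 2.83 for CD5, 7.38 against 5 for CD6 and 3.25 against 1 for CD7 (exact permutation p = 0.114, 0.2, 0.0571 and 0.0857). With lists of equal length, each reduced to its peaks of highest -log10 p, the peaks averaged 5.5 in the truncating lists, against 4.17 in the G365R and WT lists, for CD6 and 1.88 against 0.667 for CD7 (exact permutation p = 0.0286 each, adjusted p = 0.0571), with p of 0.0857 for CD2 and 0.429 for CD5. At that length the CD6 percentile was 78.4 against 39.1 and the CD7 percentile 35.2 against 7.63 (exact permutation p = 0.0286 each, adjusted p = 0.0571), the CD5 percentile 56.7 against 46.3 (exact permutation p = 0.343) and the CD2 percentile 96.2 against 96.5 (exact permutation p = 0.829). With percentiles taken by -log10 p, CD6 had 97.7 against 88.1 (difference 9.62, exact permutation p = 0.0286, adjusted p = 0.0571), CD7 86.6 against 45.0 (exact permutation p = 0.0286) and CD5 78.7 against 78.6 (exact permutation p = 0.971). The CD6 and CD7 differences thus kept their direction at equal length and by -log10 p, while that of CD5 was all but gone by -log10 p. The part of clone was not tested.

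HA and TY1 summits of a clone lay close together at the leading regions. The median distance between the HA and TY1 summits of a clone was 9 bp at the CD6 neighbour, 11 bp at the leading CD6 region, 12 bp at the leading CD7 region, 31 bp at the leading CD2 region and 45 bp at the CD5 region. The widest was 158 bp over 5 clones at a CD2 region next to the leading one (chr1:117281739-117282519), which was 781 bp long. Over the regions compared in at least 5 clones, medians ran from 9 to 33 bp in the CD6 window and from 17 to 158 bp in the CD2 window. A distance was taken only where both summits of a clone fell in the same region, so wider ones could not enter. The 17 bp belongs to the strongest CD2 site and leaves out Y287X clone 2, with offsets of 280 bp in HA and 70 bp in TY1.

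Across lists the member regions differed in how they varied. Over the 14 scores the leading CD2 and CD6 regions had a Pearson r of 0.622, the CD2 and CD5 regions 0.128, the CD5 and leading CD6 regions -0.142, and the CD5 region and the CD6 neighbour -0.646. The regions elsewhere most like the leading CD6 region were chr5:179125763-179126071 (0.959) and chr9:130565137-130565408 (0.955). Those most like the leading CD2 region were chr1:155178784-155179073 (0.925) and chr1:161416974-161417249 (0.909), and those most like the CD5 region chr16:30056557-30056950 (0.864) and chr5:882521-882857 (0.843). These are descriptions over 14 lists that share clones, and the closest were picked from all 11291 regions.

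Peaks were members by summit position alone, whatever their fold. The nearest summit inside an edge was 904 bp from it in CD5 (fold 3.03), 1280 bp in CD7 (2.01), 3118 bp in CD2 (2.95) and 4303 bp in CD6 (7.79). Just outside, the nearest was at 124 bp for CD2 (fold 3.66), 152 bp for CD5 (1.8), 424 bp for CD7 (2.41) and 8762 bp for CD6 (2.32).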

How the data were processed

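RUNX1 ChIP-seq was made from Jurkat clones with anti-HA or anti-TY1 antibody after 15 min of fixation, per the labels' protocols. CASAVA 1.8, Bowtie2 2.2.9, MACS2 2.2.7.1 and hg19 were used, per the submitters' processing notes; the sources used here do not give the caller's settings. The deposited lists, 1 per library and not pooled, give each peak a linear fold enrichment ratio, a −log10 p-value, a −log10 q-value, a score and a summit. The lowest deposited −log10 q of a list was 1.30 to 1.32. These values belong to the authors' calls and were compared between lists mainly as ranks.

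Peaks on other sequences than chromosomes 1 to 22 and X were left out. Windows of 100 bp on each side of summits were merged into regions. Normal scores of the rank of fold at the 11291 regions in all 14 lists were compared with limma 3.58.1 in R 4.3.3 (trend, Benjamini-Hochberg over all regions, threshold 0.05; 8 groups, 6 residual degrees of freedom). Clone names in the names of the deposited lists show that an HA and a TY1 list with one number share a clone, so a fit with a clone term added (residual degrees of freedom 3) stands beside it; between clones a random clone effect was used (estimated correlation 0.735). Summit signal was solved from fold and −log10 p; it was within 0.05 of a whole number for at least 99.9% of shared-region peaks in 12 lists and for 8.48% and 8.86% in the first G365R TY1 list and the WT TY1 list. Window values were compared by exact permutation, 2-sided, adjusted over 8 tests. Python 3.11.15, numpy 2.4.6, pandas 2.3.3, scipy 1.17.1 and matplotlib 3.10.9 were used, and the fit was tested on simulated data. All clones are of 1 line. The main fit and the permutation of tags within genotype treat the lists of a clone as independent, and the clone-term fit uses the spread within clones. The permutation of clones takes the clone as its unit, and the swap of tags within clones takes the HA minus TY1 difference of a clone.

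Named with values were the leading region of each window, other members in all 14 lists, members split by tag or set, and members past the threshold; the strongest CD2 site, the CD2 region with the widest summit distance, the region in HA lists alone and members in 9 to 13 lists were added after their values were seen. The members and lists were chosen with earlier results of these data known. Alternatives were 250 bp windows, regions in at least 10 lists, ranks of −log10 p or of summit signal, centred log2 fold of the deposited ratios, lists of equal length, a −log10 q of at least 5 and leaving out each clone; the pairing of the clone term with 250 bp windows or with a left-out clone was chosen after seeing the data.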

Additional observations from a re-analysis of the deposited data

Results flagged for a closer look

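In the number of peaks per window, HA and TY1 lists differed in opposite directions between genotypes, in both clones of each, and the difference was not tested. In the CD2 window R232fs clones had 5.5 more peaks in HA than in TY1 on average and G365R clones a difference of -3, which is 8.5 apart. In the CD5 window the means were 2 in R232fs and -3.5 in G365R, 5.5 apart, and in the CD6 window 3 and -2, 5 apart. In the CD7 window R232fs (1.5) differed from G365R (-1) by 2.5 and from Y287X (-1.5) by 3. The lengths of the whole lists run the same way: both R232fs HA lists were longer than their TY1 lists, and both G365R HA lists shorter. The WT HA list was shorter than its TY1 list as well (37472 peaks, against 59452). With lists of equal length the mean differences in R232fs and in G365R were 2 and 4.5 in the CD2 window, 2 and -1.5 in the CD5 window, and 0.5 and -0.5 in both the CD6 and the CD7 window, so the opposite directions were lost in the CD2 window and were within 1 peak of 0 in the CD6 and CD7 windows. In the CD5 window the lowest G365R difference was -3 and the highest 0, so the direction did not hold in both G365R clones. With the lists as deposited, in the WT clone, with both tags on wild-type protein, the differences were 0, -2, -4 and -2 peaks in the CD2, CD5, CD6 and CD7 windows.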

How the results depend on the processing

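For HA minus TY1 on the mean of the 3 mutant genotypes the count of members past the threshold, 0 at the settings reported, was 2 with the clone term (the pairing), 2 with the clone term and 250 bp windows, and 1 by summit signal; with the clone term and 1 clone left out it was 0 to 2. In R232fs it was 1 with the clone term and 0 to 1 with a clone left out as well, and in G365R 1 by summit signal and 0 to 1 with the clone term and a clone left out. The clone term changed no other call on members. Under HA truncating minus G365R gave 3 with regions in at least 10 lists, 2 by −log10 p, 1 by summit signal and 0 to 1 with a clone left out, and under TY1 0 to 1 with a clone left out.

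Several small differences changed sign. For HA minus TY1, peaks in the CD2 window were at -0.333 with a −log10 q of at least 5 and ran from -0.167 to 1.83 with a clone left out, and the CD2 percentile ran from -0.028 to 0.775. With lists of equal length the peak difference was 0.333 for CD5 and 0.167 for CD6, and the CD6 difference ran from -0.667 to 0.333 with a clone left out. The CD7 percentile was -1.18 at a −log10 q of at least 5, -8.27 by −log10 p and -1.95 to 5.90 with a clone left out. For truncating minus G365R and WT, the CD2 percentile was -0.285 with lists of equal length and -4.85 by −log10 p. The HA minus TY1 score at the leading CD6 region ran from -0.159 to 0.00897, with or without the clone term. The cause was not tested in any of these. Peak lists hold no reads, so depth limits were not computed, and the WT clone has no replicate.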
